A study of Mus musculus with 4 samples.

Results

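The cytotoxic granule genes described here are the 10 genes Gzma, Gzmb, Gzmc, Gzmf, Gzmk, Prf1, Nkg7, Fasl, Serpinb9 and Serpinb6b, taken by name from a table of 32285 genes in 4108 CD45+ leukocytes. Their levels were followed through 8 lymphoid clusters that held 1945 of these cells, named by the study as CD8 1 (571 cells), CD8 2 (315), CD8 3 (101), CD8 4 (30), NK (111), γδT cells (54), CD4 (263) and Tregs (500), and between control and clobetasol-treated tumors. The leukocytes came from 20967 melanomas, a single mouse line whose C57BL/6 background carried the alleles Nras+LSL-G12D and Tyr::CreERT2+/o, in which a tamoxifen-activated Cre driven by the Tyr (melanocyte) promoter switches on mutant Nras. It was injected intradermally into C57BL/6 hosts of wild type genotype, whose own leukocytes carry neither allele. Of the tumors, 5 received topical cetraben, a plain emollient cream (control), and 5 received 0.05% clobetasol propionate ointment, a potent glucocorticoid (GC), and they were collected 4 days post treatment, with no age of the mice given in the sources used here. Control and clobetasol preparations also differed in their base, a cream and an ointment.

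Cytotoxic lymphocytes kill by releasing granules onto a target cell. Perforin, the product of Prf1, makes pores through which granzymes, serine proteases stored in the same granules, enter the target and cut proteins that start its death. Granzyme A and granzyme K cut after basic residues, granzyme B cuts after aspartate, and granzymes C and F belong to a group of rodent genes beside Gzmb. Nkg7 encodes a granule membrane protein needed for efficient degranulation, and Fasl encodes Fas ligand, which kills through the death receptor Fas without granules. Serpinb9 and Serpinb6b encode intracellular protease inhibitors, and Serpinb9 is known for protecting killer cells and antigen-presenting cells from granzyme B that leaks into their own cytoplasm.

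Each tumor was marked with its own hashtag antibody and is a replicate here, but the 5 tumors of a group were pooled into a single 10x channel, so treatment and channel cannot be told apart. The control channel was loaded with 17100 cells and gave 3803 cells in the table, and the clobetasol channel was loaded with 3500 and gave 305. Control tumors held between 2735708 and 9869474 UMIs (unique molecular identifiers, counts of distinct transcripts) and clobetasol tumors between 139195 and 1235264. Levels below are UMIs per 10000 UMIs of a cell, averaged over the cells of a tumor and written per 10000. The cluster names were largely borne out by marker genes, with a Cd8a or Cd8b1 UMI in 76.7% to 94.7% of control cells of the 4 CD8 clusters and in 5.61% of control NK cells. CD8 4 held other markers too, with a Foxp3 UMI in 23.3% and a Cd4 UMI in 16.7% of its 30 control cells. Foxp3 was found in 0.774% to 3.19% of control cells of CD8 1 to 3. Mki67, a proliferation gene, had a UMI in 93.3% of CD8 4 cells. The CD4 cluster was also mixed, since 24.5% of its control cells had a Cd8a or Cd8b1 UMI, 96 of 253 had a UMI of an NK marker, and 15 held B cell marker UMIs.

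In control tumors, Gzma, Gzmc, Prf1, Serpinb9 and Serpinb6b were highest in NK cells, Gzmb and Gzmk in CD8 3, Gzmf and Nkg7 in CD8 2, and Fasl in CD8 1. The clusters were made from the same transcripts, so these levels are a description without a test. Neighbors in an order are called apart where the lowest tumor of the higher cluster lay above the highest tumor of the lower one.

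**Figure D1:**
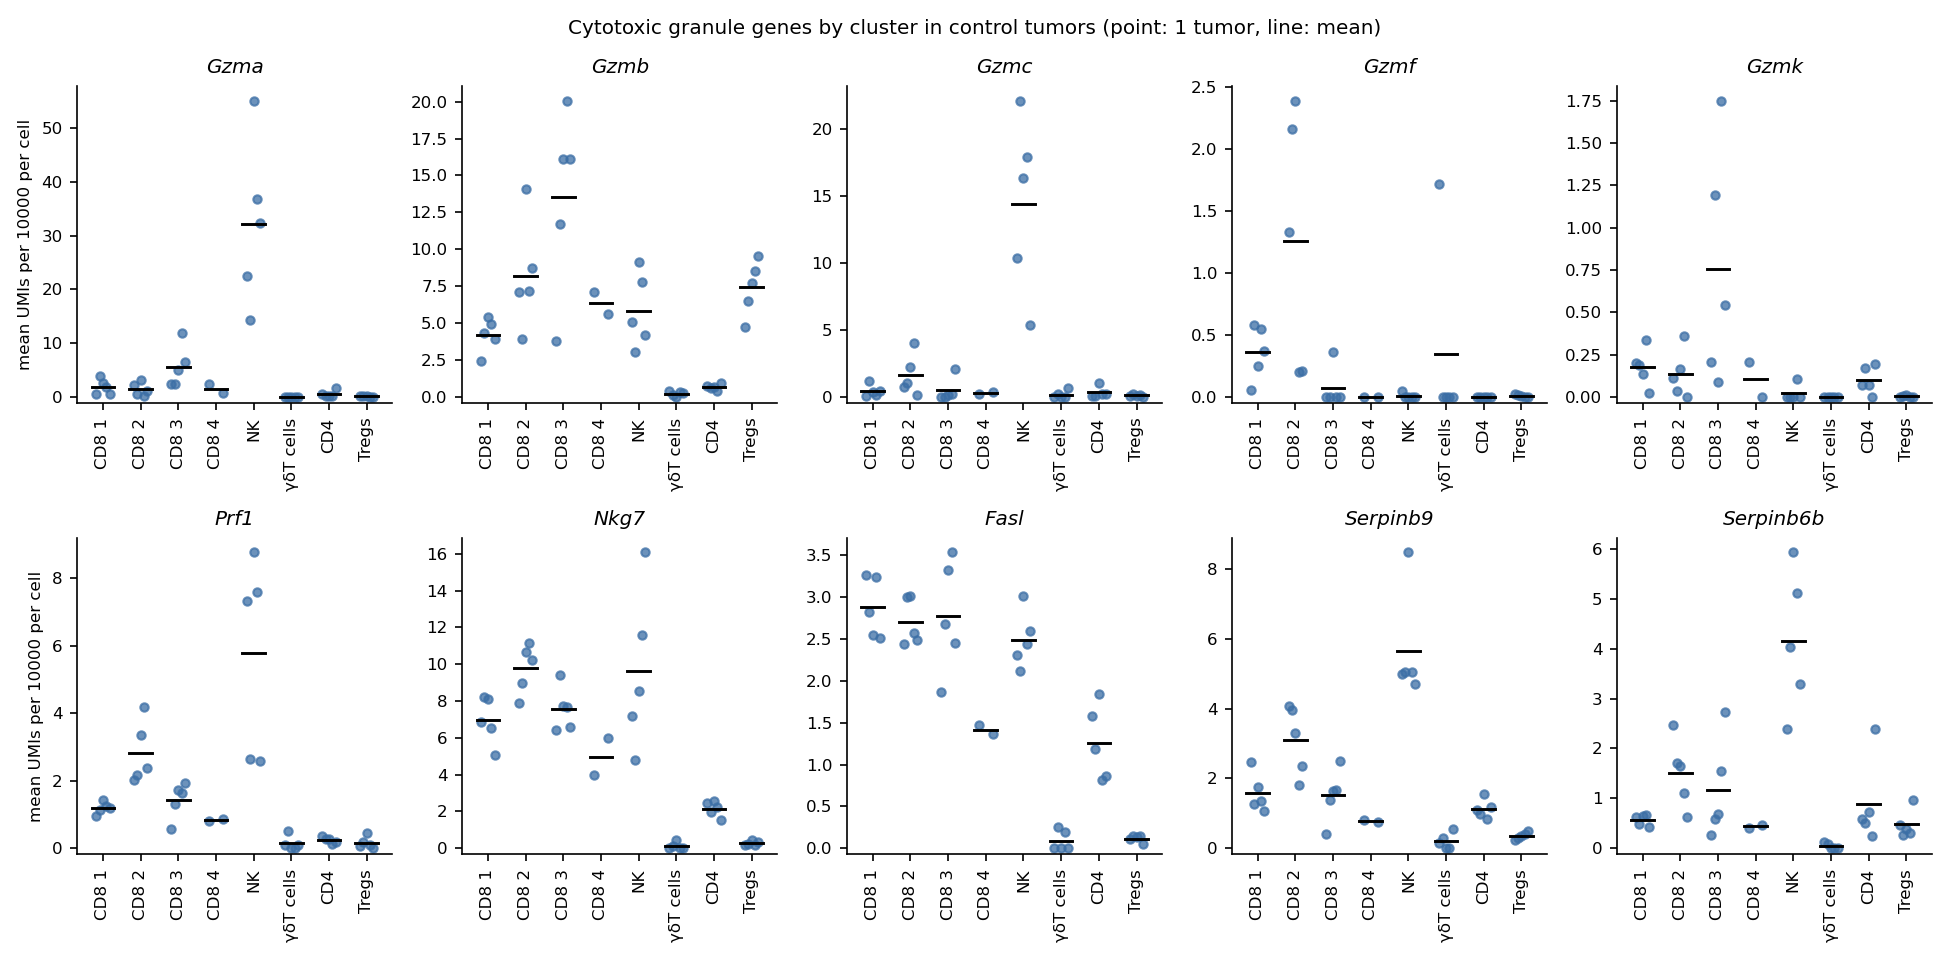
Level of each gene in 8 lymphoid clusters of the control tumors, with 1 point for each tumor with at least 5 cells of the cluster and a line at their mean (vertical axis, mean UMIs per 10000 per cell, a separate linear scale for each gene). Gzma and Gzmc stand apart in NK cells (14.2 to 55.1 and 5.39 to 22.1), whereas the Gzmb points of Tregs (4.70 to 9.56) lie within the range of CD8 2 (3.89 to 14.1).

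Gzma reached 32.2 ± 15.5 per 10000 (SD, n = 5 tumors) in NK cells and 5.61 ± 3.90 in CD8 3, and these were apart. It lay between 1.4 and 1.89 in CD8 1, CD8 2 and CD8 4, whose ranges overlapped, and no Gzma UMI was seen in 43 control γδT cells, which allows up to 0.0988 per 10000 (3 UMIs). Gzmc had the same leader, at 14.4 ± 6.56 in NK cells against 1.63 ± 1.53 in CD8 2, and was also apart. The remaining clusters held at most 0.489 ± 0.890 Gzmc per 10000. Gzmf, although it lies beside Gzmc, was nearly absent from NK cells, with 1 UMI in 107 cells, and was highest in CD8 2 at 1.26 ± 1.04, a range that overlapped that of CD8 1 (0.359 ± 0.217).

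Gzmb was spread more widely than the other granzymes. It measured 13.6 ± 6.22 per 10000 in CD8 3, 8.18 ± 3.73 in CD8 2, 7.41 ± 1.88 in Tregs, 6.35 ± 1.02 in CD8 4 (n = 2), 5.84 ± 2.53 in NK cells and 4.20 ± 1.14 in CD8 1, and each neighboring pair in this order overlapped. The drop came after CD8 1, which was apart from CD4 at 0.654 ± 0.200. Tregs, the suppressive Foxp3+ CD4 cells, therefore had Gzmb within the range of the CD8 clusters, but held little of the other killing genes, with Gzma at 0.0727 ± 0.0624, Prf1 at 0.162 ± 0.177 and Nkg7 at 0.271 ± 0.114. Gzmk, often used to mark a memory-like CD8 state, was low throughout, with 0.755 ± 0.703 in CD8 3 and at most 0.176 ± 0.113 elsewhere.

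Prf1 was graded among the killer cells, from 5.78 ± 2.94 in NK cells and 2.82 ± 0.927 in CD8 2, which overlapped, to 1.44 ± 0.536 in CD8 3 and 1.20 ± 0.176 in CD8 1. CD8 2 and CD8 3 were apart. Nkg7 did not order the killers, at 9.79 ± 1.32 in CD8 2, 9.65 ± 4.35 in NK cells, 7.57 ± 1.21 in CD8 3 and 6.96 ± 1.28 in CD8 1, all overlapping. It was 4.98 ± 1.39 in CD8 4 (n = 2), which was apart from CD4 at 2.15 ± 0.418, and CD4 was apart from Tregs at 0.271 ± 0.114. Fasl lay between 2.49 ± 0.339 and 2.88 ± 0.363 in NK cells and CD8 1 to 3, with overlapping ranges, then 1.42 ± 0.0782 in CD8 4 (n = 2) and 1.26 ± 0.448 in CD4, and was 0.115 ± 0.04 in Tregs and 0.0900 ± 0.125 in γδT cells.

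The inhibitors followed the killers only in part. Serpinb9 was highest in NK cells, at 5.66 ± 1.58 per 10000, apart from CD8 2 at 3.11 ± 0.997, and lay between 1.13 and 1.59 in CD8 1, CD8 3 and CD4. Serpinb6b showed a like order, with 4.15 ± 1.41 in NK cells and 1.51 ± 0.696 in CD8 2, which overlapped by a narrow margin (2.39 against 2.47). Among all 16 clusters of the table, however, the highest pooled serpin levels were in DC 1, a dendritic cell cluster, with 11.6 Serpinb9 (exact 95% Poisson interval 11.1 to 12.2) and 8.20 Serpinb6b (7.75 to 8.67) per 10000. These intervals, like all pooled ones below, cover counting error only. The study's dendritic cells were not alike in this, since DC 2 held 0.613 Serpinb9 per 10000.

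The source of each transcript differed accordingly. NK cells, 107 of 3803 control cells, gave 72.0% of all Gzmc UMIs, 58.1% of Gzma and 29.7% of Prf1, whereas CD8 1 to 3 gave 97.2% of Gzmf. Tregs gave 28.7% of all Gzmb UMIs in control tumors (32.5 ± 9.73% per tumor, range 18.9 to 43.6%). DC 1, with 97 cells, gave 41.0% of Serpinb9 and 47.7% of Serpinb6b UMIs. In the clobetasol channel, with 4 NK cells and 10 DC 1 cells, CD8 1 to 3 gave 96.0% of Gzma and 80.8% of Gzmb UMIs, DC 1 22.2% of Serpinb9 and 22.6% of Serpinb6b.

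**Figure D2:**
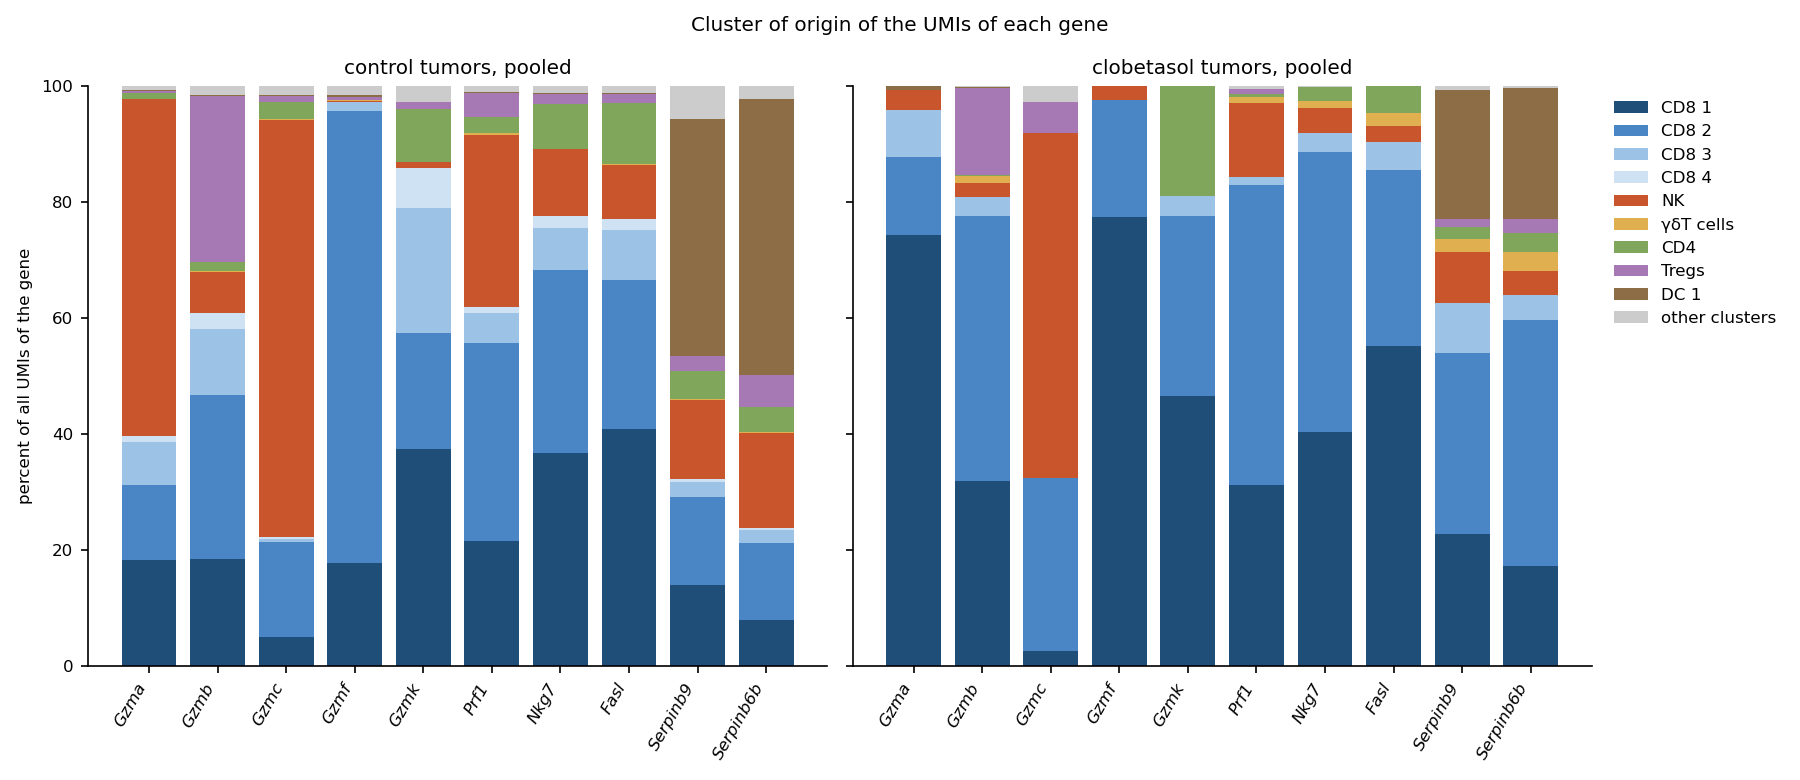
Share of the UMIs of each gene (vertical axis, percent) that came from each cluster, in the pooled control tumors (left) and pooled clobetasol tumors (right). NK cells gave 72.0% of control Gzmc and DC 1 gave 47.7% of control Serpinb6b, while Fasl and Nkg7 came mainly from the CD8 clusters in both.

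A few cells carried much of the granzyme signal. Among the 880 control cells of CD8 1 to 3, called CD8 T cells here, the 88 cells with most UMIs of a gene held 94.1% of Gzma, 66.2% of Gzmb and 61.1% of Prf1 UMIs, and all Gzmc, Gzmf and Gzmk UMIs lay within such a set of 88 cells. Nkg7 and Fasl were spread more evenly, with 30.7% and 32.6% in the top 88 cells. A UMI of Gzmb was present in 51.7% of control CD8 T cells, of Nkg7 in 86.3%, of Fasl in 72.5%, of Gzma in 20.1%, of Gzmc in 8.86% and of Gzmf in 4.20%. Tumor macrophages (TAM), which should lack these transcripts, had a Gzmb UMI in 6.36%, a Gzma UMI in 2.35%, a Gzmc UMI in 3.04% and a Gzmf UMI in 0.830% of cells at a median of 12880 UMIs per cell, against 6826 in CD8 T cells. With every cell thinned to 2000 UMIs the Gzmc shares were 4.18% in CD8 T cells and 0.521% in TAM, so the CD8 T signal remained above this background.

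Granzyme transcripts tended to be found in the same cells. Of 177 control CD8 T cells with a Gzma UMI, 81.4% also had Gzmb, against 44.2% of the 703 cells without Gzma, and of 37 cells with Gzmf, 35.1% had Gzmc, against 7.71% of those without. In NK cells none of the 39 cells with Gzmc had a Gzmf UMI, but only 1 of 107 NK cells had any, so their overlap could not be judged there. Serpinb9 was found in 74.5% of CD8 T cells with Serpinb6b and in 38.7% of those without. Cells with a gene were also deeper (median 7756 against 6505 UMIs for Serpinb6b), and the part of depth in these overlaps was not tested.

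The central comparison asked whether the granule genes of tumor-infiltrating CD8 T cells differed between control and clobetasol tumors. In CD8 T cells both inhibitor genes were higher and Gzmc was lower with clobetasol, and the other 7 genes did not pass the test. The test was limma on log2 of the level plus 0.1, over 6158 genes, in 5 control and 3 clobetasol tumors with at least 10 CD8 T cells, with a Benjamini-Hochberg adjusted p under 0.05 as the threshold. All 10 genes had enough signal to be tested. Of all genes tested, 2.27% were called higher and 2.74% lower, and 2 and 1 of the 10 granule genes were. The median log2 difference over all genes was -0.09. In these data fewer transcripts per cell and fewer cells that carry a transcript both lower a tumor mean, so shares of cells are given for Gzmb and the 3 called genes.

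**Figure D3:**
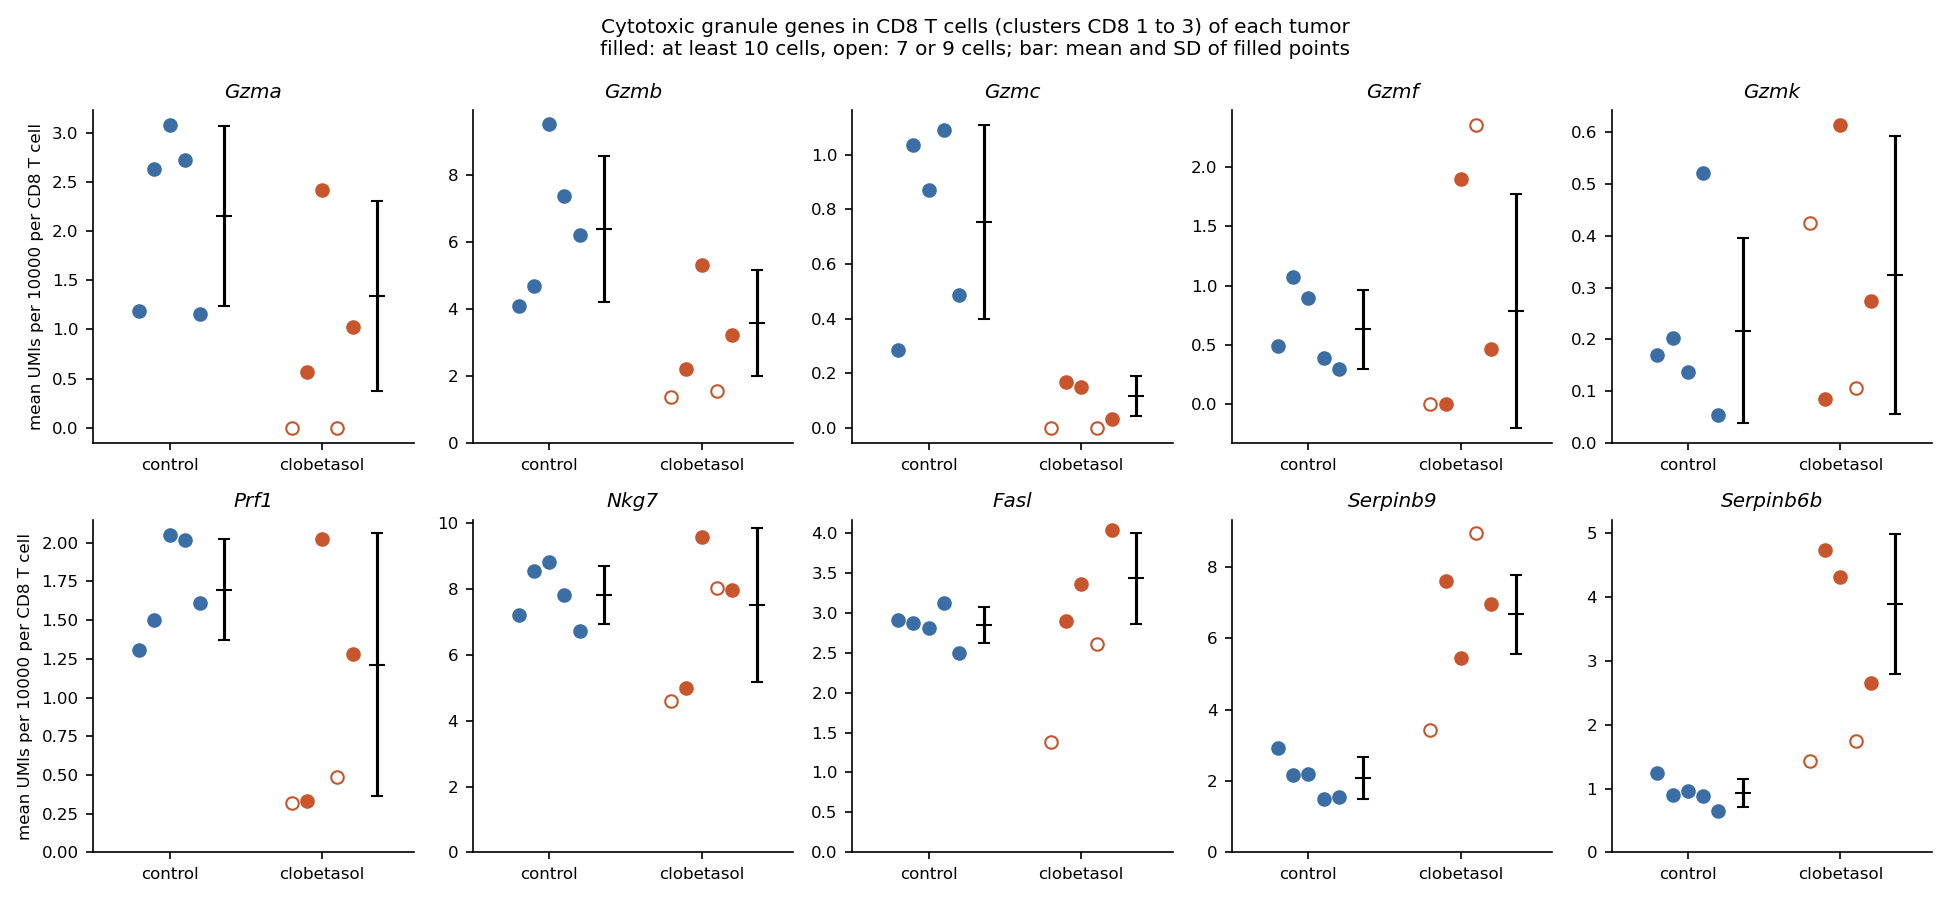
Level of each gene in the CD8 T cells of each tumor (vertical axis, mean UMIs per 10000 per cell), with filled points for tumors with at least 10 cells, open points for clobetasol tumors 1 and 4 (7 and 9 cells), and the mean and SD of the filled points beside each group. For Serpinb9 and Serpinb6b every clobetasol point lies above every control point, and for Gzmc every clobetasol point lies below.

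Serpinb9 measured 2.94, 2.18, 2.20, 1.5 and 1.56 per 10000 in control tumors 1 to 5, and 7.59, 5.46 and 6.95 in clobetasol tumors 2, 3 and 5, which had 12, 38 and 41 CD8 T cells. The groups did not overlap. The share of all genes whose groups were likewise apart was counted only with all 5 clobetasol tumors, and is given below. The level rose from 2.08 ± 0.585 (SD, n = 5) to 6.67 ± 1.10 (n = 3), a log2 difference of 1.67 ± 0.21 (SE) and a 3.17-fold change (limma adjusted p = 0.00131). In clobetasol tumors 1 and 4, with only 7 and 9 CD8 T cells and so outside the test, it was 3.42 and 8.95. The share of CD8 T cells with a Serpinb9 UMI, with each cell thinned to 2000 UMIs, was 24.99 ± 4.57% (n = 5) in control and 58.5 ± 4.35% (n = 3) in clobetasol tumors, and 47.7% and 81.7% at full depth.

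Serpinb6b measured 1.25, 0.899, 0.955, 0.888 and 0.650 per 10000 in control tumors 1 to 5, and 4.73, 4.31 and 2.65 in clobetasol tumors 2, 3 and 5. These groups did not overlap either. It rose from 0.928 ± 0.215 to 3.90 ± 1.10, a log2 difference of 1.94 ± 0.22 and a 3.84-fold change (limma adjusted p = 0.000715), and clobetasol tumors 1 and 4 had 1.43 and 1.74. The thinned share of cells with a UMI was 12.7 ± 2.74% in control and 42.5 ± 10.3% in clobetasol tumors. By size of the rise Serpinb6b ranked 6 and Serpinb9 ranked 13 among the 6158 genes. Both passed under all 21 alternative settings, with log2 differences of 1.17 to 2.19 for Serpinb6b and 1.29 to 1.80 for Serpinb9.

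Since DC 1 and NK cells held more of these inhibitors than CD8 T cells did, markers of other cells were read in the same CD8 T cells. The 6 NK markers, of which Tyrobp is also a myeloid gene, summed to 1.39 per 10000 in control (1.29 to 1.53 over tumors) and 1.20 in clobetasol CD8 T cells (0.923 to 1.52). Of these, Klrb1c went the other way at full depth, with a UMI in 5.22% of control and 24.1% of clobetasol CD8 1 cells. Its shares were 1.1% and 6.52% in CD8 2, and 3.19% and 28.6% (2 of 7 cells) in CD8 3. Ncr1, another of the 6, had no UMI in clobetasol cells of these clusters. In control cells it was also nearly absent, with a UMI in 1 of 517 CD8 1 and 1 of 269 CD8 2 cells and in no CD8 3 cell. Its absence with clobetasol therefore says little. The 4 markers of mature dendritic cells, a list added after the data were seen, summed to 0.116 over all 880 control cells and 0.0675 over all 107 clobetasol cells. Their tumor ranges, over tumors with at least 10 cells, overlapped (0.0770 to 0.168 and 0.0748 to 0.103). The summed level of the 6 macrophage genes was 1.83 (1.30 to 2.15) in control and 0.299 (0.103 to 0.499) in clobetasol cells. These ranges did not overlap, but the share of genes likewise apart in these tumors was not counted. The part of all these markers in the serpin result was not tested. Control TAM held 0.0954 Serpinb9 and 0.0161 Serpinb6b per 10000. The median CD8 T cell held 9741 UMIs in clobetasol and 6826 in control tumors, and after thinning the log2 differences of both serpins still passed the test.

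Serpinb6b (chromosome 13, 32965209 to 32979067) and Serpinb9 (chromosome 13, 33003250 to 33017957) lie on the same strand 24.2 kb apart in GRCm38 (GENCODE vM21), with no protein-coding gene between them, in a cluster of related serpin genes. Of the other protein-coding serpin genes of this cluster, only Serpinb6a had enough signal for the test, and none of the rest exceeded 64 UMIs in control CD8 T cells. The windows upstream of their RefSeq start sites are printed because both genes rose together, with the 10 bases matching an interferon regulatory factor (IRF) motif in capitals. The Serpinb9 window also lies within an intron of its longer transcript, and the Serpinb6b window was ended at the first annotated exon.
Serpinb9, chr13:33004291-33004540 (GRCm38.p6, + strand): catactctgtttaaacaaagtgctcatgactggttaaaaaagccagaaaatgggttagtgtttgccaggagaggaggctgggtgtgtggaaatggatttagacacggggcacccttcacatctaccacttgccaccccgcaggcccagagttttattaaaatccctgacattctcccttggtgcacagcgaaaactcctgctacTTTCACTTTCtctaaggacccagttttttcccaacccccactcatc
Serpinb6b, chr13:32965011-32965208 (GRCm38.p6, + strand): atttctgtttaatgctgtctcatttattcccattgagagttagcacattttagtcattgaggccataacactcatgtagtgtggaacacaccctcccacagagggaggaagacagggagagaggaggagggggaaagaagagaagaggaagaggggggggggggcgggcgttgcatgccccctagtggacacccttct

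The 250 bases upstream of 32851 RefSeq promoters were searched on both strands for 8 motifs. The full glucocorticoid response element (AGAACA, any 3 bases, TGTTCT) was in neither serpin window and in 0.00913% of all promoters, and its single arm AGAACA was in neither and in 16.1% of all. The IRF motif (GAAA, any 2 bases, GAAA), searched after the sequence had been read, lay 46 to 37 bases before the Serpinb9 start and in 2.98% of all promoters, and the Serpinb6b window held none of the 8 motifs. The remaining motifs, AP-1 (TGANTCA), STAT (TTCNNNGAA), RUNX (ACCACA), T-box (TCACACC) and the NF-kB consensus, were in neither serpin window. Aligned over their full 250 bases, which for Serpinb6b include 52 exon bases not printed, the 2 serpin windows were 46.4% identical. The 9 pairs other than Gzmc and Gzmf, among the 5 full windows of the genes shown here, ranged from 45.5% to 50.2%.

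Gzmc fell. It measured 0.285, 1.04, 0.870, 1.09 and 0.485 per 10000 in control tumors 1 to 5, and 0.168, 0.149 and 0.0318 in clobetasol tumors 2, 3 and 5, without overlap. The log2 difference was -1.92 ± 0.39 (limma adjusted p = 0.0161), from 0.754 ± 0.354 to 0.117 ± 0.0740, and clobetasol tumors 1 and 4 had no Gzmc UMI in 16 cells together. The signal was sparse, since 4 of 107 clobetasol CD8 T cells held all 12 Gzmc UMIs and 1 of them held 9, and in control cells 1 cell held 148 of 769. With cells thinned to 2000 UMIs the share of cells with Gzmc was 4.09 ± 1.69% (2.41 to 6.53%) in control and 2.04 ± 1.37% (0.635 to 3.37%) in clobetasol tumors, and these ranges overlapped. Gzmc passed in 14 of 21 alternatives, with log2 differences of -3.31 to -0.10 over the 21. The call was lost in edgeR with tumors of at least 10 cells (adjusted p = 0.177) or 5 cells (0.0577), with the mean of log values (0.189), with thinned cells (0.0679), with CD8 1 and CD8 2 at equal weight (0.119), and on leaving out control tumor 3 (0.0522) or control tumor 4 (0.0523).

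Gzmb, the most studied granzyme, measured 4.10, 4.69, 9.53, 7.39 and 6.22 per 10000 in control tumors 1 to 5, and 2.23, 5.31 and 3.22 in clobetasol tumors 2, 3 and 5. The values overlapped. The log2 difference was -0.84 ± 0.29 and missed the threshold (limma adjusted p = 0.129). Without clobetasol tumor 3 it was -1.16 (adjusted p = 0.0336), and 1 cell held 143 of the 459 Gzmb UMIs of all clobetasol CD8 T cells. The thinned share of cells with Gzmb was 35.6 ± 8.35% in control and 31.8 ± 7.68% in clobetasol tumors, with overlapping ranges.

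The other killing genes gave differences within their spread. Prf1 was 1.70 ± 0.326 in control and 1.21 ± 0.850 in clobetasol tumors, a log2 difference of -0.71 ± 0.40 (limma adjusted p = 0.32), and Gzma was 2.15 ± 0.912 and 1.34 ± 0.963, a log2 difference of -0.75 ± 0.42 (adjusted p = 0.323). Gzmk, with 0.217 ± 0.179 and 0.324 ± 0.267, differed by 0.37 ± 0.48 (adjusted p = 0.68). For Gzmf the direction depended on the setting, with a log2 difference of -0.47 ± 0.73 in limma and 0.48 in edgeR, and 1 cell of clobetasol tumor 3 held 81 of the 125 UMIs. Nkg7 and Fasl, present in most CD8 T cells and so the best measured, differed by -0.10 ± 0.18 and 0.25 ± 0.14 on the log2 scale (limma adjusted p = 0.786 and 0.308), and Nkg7 changed sign in edgeR, at 0.12.

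With all 5 clobetasol tumors included, by accepting tumors with at least 5 CD8 T cells, 4 of the 10 genes passed limma. Serpinb9 (log2 difference 1.57 ± 0.25, adjusted p = 0.0039) and Serpinb6b (1.46 ± 0.30, adjusted p = 0.0204) were higher, where 1.71% of 6182 genes were called higher. Gzmc (-2.34 ± 0.41, adjusted p = 0.00639) and Gzmb (-1.30 ± 0.33, adjusted p = 0.0452) were lower, where 1.44% were called lower. Every clobetasol tumor lay above every control tumor for Serpinb9 (3.42 to 8.95 against 1.5 to 2.94) and Serpinb6b (1.43 to 4.73 against 0.650 to 1.25), as it did for 2.59% of all genes, and below for Gzmc (0 to 0.168 against 0.285 to 1.09), as for 4.3%. The Gzmc values of 0 came from clobetasol tumors 1 and 4, with 7 and 9 CD8 T cells. A gene with a UMI in 8.86% of control CD8 T cells can be missed in so few cells. Gzmb overlapped, with 1.39 to 5.31 against 4.10 to 9.53.

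Summed over the 5 granzymes and both serpins, control tumors 1 to 5 had 0.516, 0.287, 0.177, 0.186 and 0.246 serpin UMIs for each granzyme UMI in CD8 T cells, and clobetasol tumors 1 to 5 had 2.60, 2.74, 0.838, 2.68 and 1.97. The clobetasol ratios rest on 10, 39, 495, 31 and 210 granzyme UMIs. All lay above the control range, as the values of both serpins already did. No share over other sets of genes was counted. The ratio rests on the same values as above and compares 3' tags of different genes, so it is read only between tumors and has no test of its own.

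The upstream windows of the 3 granzyme genes on chromosome 14 are printed because Gzmc fell while its neighbor Gzmf gave no clear direction. Gzmb (56258838 to 56262260), Gzmc (56231441 to 56234656) and Gzmf (56205263 to 56211417) lie on the minus strand, with 24181 bases between Gzmb and Gzmc and 20023 between Gzmc and Gzmf. Gzmf overlaps an antisense gene, Gm4022, and reads are assigned by strand in this 3' assay. In the last 500 bases of their transcripts none of the 10 genes shared a 90-base stretch, the length of a read, with another gene. Capitals mark RUNX motifs and, in Gzmb, also an AP-1 motif (TGAGTCA).
Gzmb, chr14:56262335-56262584 (GRCm38.p6, - strand): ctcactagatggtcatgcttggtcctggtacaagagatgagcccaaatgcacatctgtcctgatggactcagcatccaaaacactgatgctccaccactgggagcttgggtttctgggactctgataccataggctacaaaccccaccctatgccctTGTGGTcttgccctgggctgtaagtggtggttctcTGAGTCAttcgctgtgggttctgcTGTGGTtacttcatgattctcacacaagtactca
Gzmc, chr14:56234658-56234907 (GRCm38.p6, - strand): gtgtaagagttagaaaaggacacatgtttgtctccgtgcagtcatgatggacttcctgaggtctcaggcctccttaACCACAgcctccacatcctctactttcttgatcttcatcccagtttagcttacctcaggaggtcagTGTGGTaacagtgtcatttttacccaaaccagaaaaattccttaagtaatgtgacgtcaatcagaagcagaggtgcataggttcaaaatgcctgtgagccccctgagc
Gzmf, chr14:56211418-56211657 (GRCm38.p6, - strand): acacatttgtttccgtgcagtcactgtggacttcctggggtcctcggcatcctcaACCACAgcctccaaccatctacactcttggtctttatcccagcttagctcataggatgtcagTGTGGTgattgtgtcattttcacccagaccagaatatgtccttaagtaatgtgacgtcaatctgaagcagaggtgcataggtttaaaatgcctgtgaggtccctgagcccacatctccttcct

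Each of the 3 windows held 2 RUNX motifs, found at least 2 times in 1.27% and at least 1 time in 14.1% of all promoters. The AP-1 motif lay 58 to 52 bases before the RefSeq start of Gzmb and in 6.75% of all promoters. This RefSeq start lies 74 bases upstream of the GENCODE start of Gzmb. The Gzmc and Gzmf windows were 71.5% identical, with 198 of 223 aligned bases the same and 54 gap positions, whereas each was 47.9% and 50.2% identical to Gzmb. Their levels nevertheless differed by cluster, since NK cells held 2520 UMIs of Gzmc and 1 of Gzmf.

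CD8 1 and CD8 2 were then compared apart, since a shift in their shares would change a mean over CD8 T cells. Only clobetasol tumors 3 and 5 held at least 10 cells of either cluster, so these tests set 5 control tumors against 2. With 2 tumors in a group a lack of overlap is easily reached. The share of all genes without overlap was not counted here, so such statements below carry little weight. In CD8 1 both serpins rose, in CD8 2 only Serpinb9 passed, and no other granule gene passed in either cluster.

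**Figure D4:**
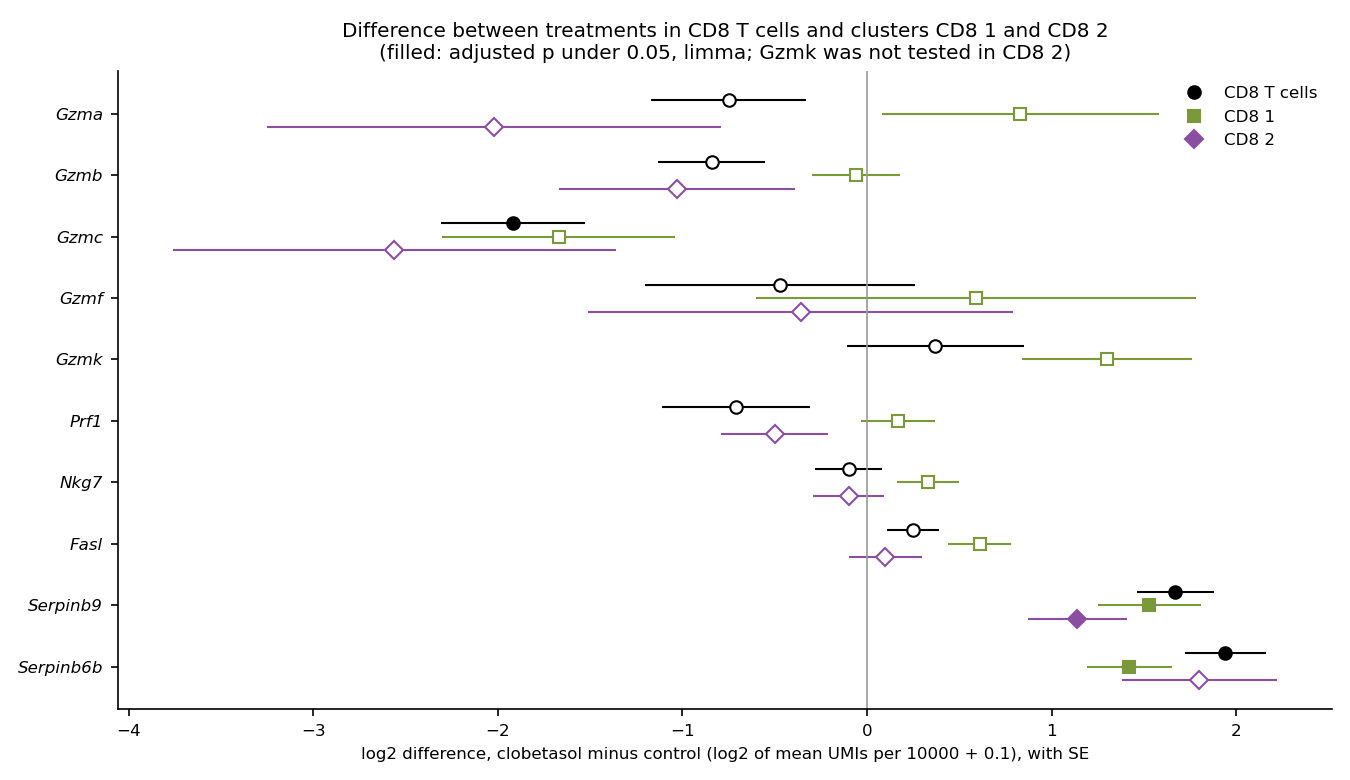
Log2 difference between clobetasol and control tumors (horizontal axis, with SE) of each gene in CD8 T cells, CD8 1 and CD8 2, where filled symbols passed the limma threshold. The Serpinb9 and Serpinb6b symbols lie between 1.14 and 1.94, and the granzyme symbols have wide errors.

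Serpinb9 in CD8 1 was 2.48, 1.27, 1.77, 1.35 and 1.07 per 10000 in control tumors 1 to 5 and 3.46 and 6.03 in clobetasol tumors 3 and 5, a log2 difference of 1.53 ± 0.28 (limma adjusted p = 0.00593). Serpinb6b was 0.628, 0.484, 0.651, 0.670 and 0.430 in control tumors and 1.63 and 1.74 in the clobetasol tumors, a difference of 1.42 ± 0.23 (adjusted p = 0.00299). Neither overlapped between groups. Of 6190 genes, 2.62% were called higher in CD8 1. The other log2 differences in CD8 1 were -1.67 ± 0.63 for Gzmc, 0.83 ± 0.75 for Gzma, 0.59 ± 1.19 for Gzmf, 0.33 ± 0.17 for Nkg7, 0.17 ± 0.20 for Prf1 and -0.06 ± 0.24 for Gzmb, with limma adjusted p between 0.135 and 0.92. Fasl, the death ligand, was 2.88 ± 0.363 in control and 4.47 ± 0.937 in clobetasol CD8 1 cells (log2 difference 0.61 ± 0.17, limma adjusted p = 0.0528), which passed in 6 of 16 alternatives, edgeR among them (adjusted p = 0.021), and on leaving out clobetasol tumor 3 (0.82, adjusted p = 0.00653), where the single remaining tumor was assumed to vary like the controls. Leaving out clobetasol tumor 5 in the same way brought Gzmk to 1.93 (adjusted p = 0.0103, against 1.30 ± 0.46 with it) and Gzmf to 3.21 (adjusted p = 0.0104), whereas without clobetasol tumor 3 Gzmf was -2.02 (adjusted p = 0.0376).

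In CD8 2, Serpinb9 was 4.08, 3.97, 3.30, 1.80 and 2.37 per 10000 in control tumors 1 to 5 and 7.15 and 6.21 in clobetasol tumors 3 and 5, a log2 difference of 1.14 ± 0.27 (limma adjusted p = 0.0426), where 1.07% of 6072 genes were called higher. Serpinb6b was 2.47, 1.70, 1.66, 1.11 and 0.618 in control and 6.91 and 3.70 in clobetasol tumors, a larger difference of 1.80 ± 0.42 that missed the threshold (adjusted p = 0.0562). Groups did not overlap for either gene. The Serpinb9 call was lost without control tumor 3 (adjusted p = 0.0747), control tumor 5 (0.0757), clobetasol tumor 3 (0.162) or clobetasol tumor 5 (0.12), and Serpinb6b passed without control tumor 1 (0.0174) or control tumor 5 (0.0235). Granzyme differences in CD8 2 ran from -2.56 ± 1.20 (Gzmc) to -0.36 ± 1.15 (Gzmf) and none passed, while Gzmk was too low to test. Prf1 differed by -0.50 ± 0.29, Nkg7 by -0.10 ± 0.19 and Fasl by 0.10 ± 0.20, and none of these passed either.

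Whether the clobetasol difference itself differed between CD8 2 and CD8 1 was tested as an interaction over 6177 genes, of which limma called 0, a share of 0% (629 genes, none of them a granule gene, had an unadjusted p under 0.05). For Serpinb9 the difference of differences was -0.39 ± 0.44 (adjusted p = 0.82) and for Serpinb6b 0.38 ± 0.49 (adjusted p = 0.843). For Gzma it was -2.86 ± 1.59 (adjusted p = 0.595), a wide error that leaves room for large differences. The other members gave -0.97 ± 0.74 (Gzmb), -0.95 ± 1.92 (Gzmf), -0.89 ± 1.5 (Gzmc), -0.67 ± 0.37 (Prf1), -0.51 ± 0.25 (Fasl), -0.43 ± 0.26 (Nkg7) and -0.35 ± 0.73 (Gzmk).

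The remaining clusters held 14 or fewer clobetasol cells and no CD8 4 cell, so values are given for pooled cells with exact 95% Poisson intervals and without a test. Serpinb9 was higher in the pooled clobetasol cells of all 5 of these clusters that had cells in both groups. In CD8 3 it was 1.66 (1.36 to 2.00) per 10000 in 94 control cells and 14.8 (11.9 to 18.1) in 7 clobetasol cells, of which 1 cell held 63 of 94 UMIs. By tumor these 7 cells gave 7.79 (2 cells of clobetasol tumor 2), 9.23 (1 cell of tumor 3) and 14.8 (4 cells of tumor 5). NK cells had 5.95 (5.48 to 6.44) in control and 12.2 (9.90 to 14.9) in 4 clobetasol cells, 2 from tumor 3 (17.3) and 2 from tumor 5 (9.52), against a control range of 4.71 to 8.48, and 1 cell held 52 of the 97 UMIs.

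γδT cells, which held almost no serpin transcript in control tumors, had 5 Serpinb9 UMIs in 43 control cells, or 0.165 (0.0535 to 0.384) per 10000, and 24 in 11 clobetasol cells, or 3.10 (1.99 to 4.61). Of those 24 UMIs, 17 came from 1 cell of clobetasol tumor 4, and the other 7 from 5 cells. Serpinb6b in the same cells was 0.0659 (0.00798 to 0.238) and 2.32 (1.38 to 3.67), and none of the 11 clobetasol cells had a Cd8a or Cd8b1 UMI. Their γδT markers were only partly kept. A Trdc UMI was in 69.8% of control and 36.4% of clobetasol γδT cells. For Il23r the shares were 86.1% and 63.6%, for Tcrg-C1 69.8% and 72.7%, and for Cd3e 83.7% and 54.55%. Killing genes were also read in these pooled γδT cells. Nkg7 was 0.0659 per 10000 in control and 1.68 in clobetasol cells, with 11 of the 13 clobetasol UMIs in 1 cell. Fasl was 0.132 and 1.03, Gzmb 0.263 and 0.904, and Prf1 0.198 and 0.258. Gzma and Gzmk had no UMI in either group, and Gzmc and Gzmf none in clobetasol cells. The part of other cell types in the γδT serpin values was not tested. CD4 cells had 1.06 and 2.11 Serpinb9 per 10000, with 8 of the 22 clobetasol UMIs in 1 cell. Tregs had 0.334 (0.274 to 0.404) and 1.27 (0.727 to 2.06), with 9 of the 16 clobetasol UMIs in 1 cell, and without cells that had a Cd8a or Cd8b1 UMI they had 0.332 and 0.610, the latter on 7 UMIs. Serpinb6b was not higher everywhere, since NK cells had 4.29 (3.90 to 4.72) in control and 3.02 (1.94 to 4.49) in clobetasol tumors, and in DC 1 it was 8.20 (7.75 to 8.67) and 5.74 (4.79 to 6.82), where Serpinb9 was 11.6 and 10.9.

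**Figure D5:**
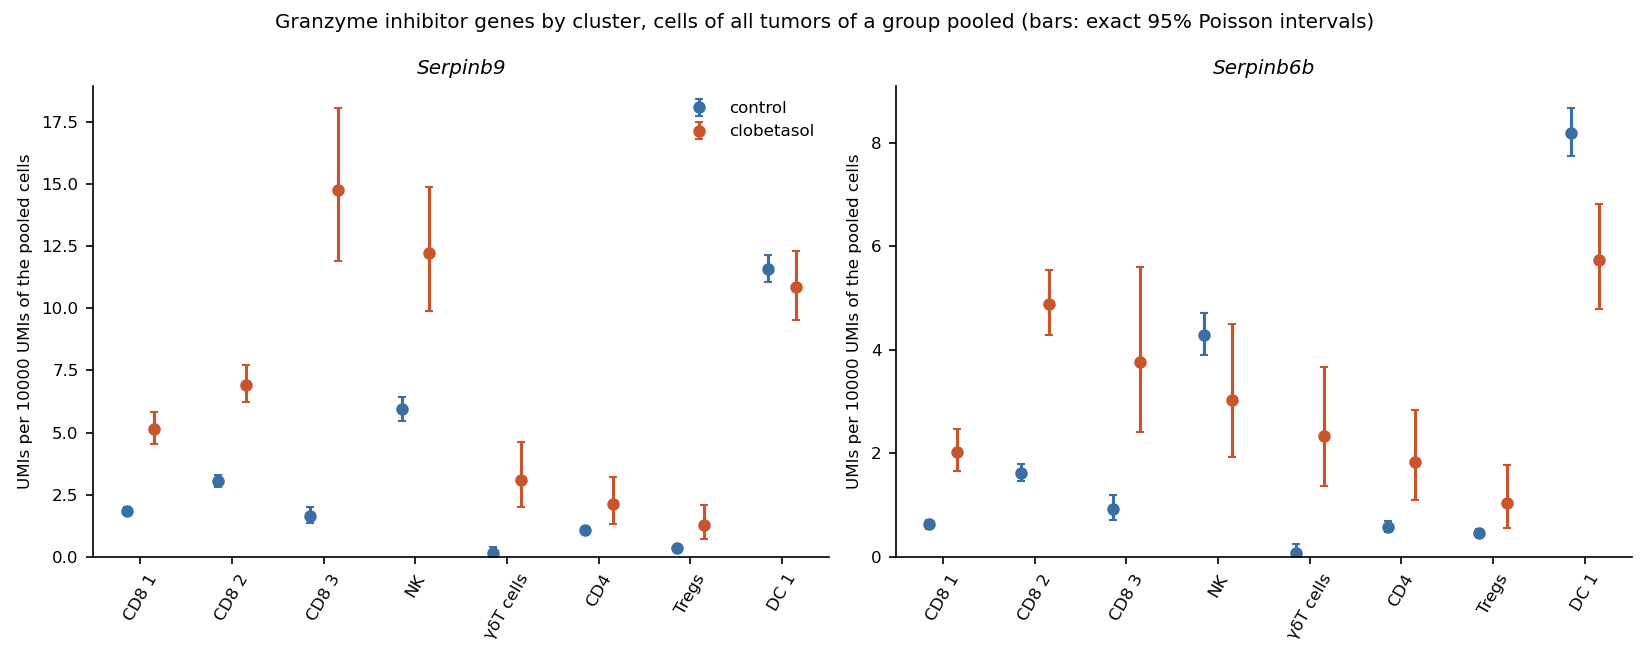
Serpinb9 (left) and Serpinb6b (right) in the pooled cells of each cluster in control and clobetasol tumors (vertical axis, UMIs per 10000 UMIs of the pooled cells, bars are exact 95% Poisson intervals that cover counting error only). Clobetasol points exceed control points in CD8 1 to 3, γδT cells, CD4 and Tregs for both genes, whereas in DC 1 the control points are the higher.

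Granzyme levels in these small clusters mostly pointed lower or were sparse. Gzma in NK cells was 28.6 (27.5 to 29.6) per 10000 in 107 control cells and 0.629 (0.204 to 1.47) in 4 clobetasol cells, with 5 UMIs in a single cell, and Gzmc was 25.2 and 2.77. The control Gzmc level rested on few cells, since 1 NK cell held 628 of 2520 UMIs. The share of NK cells with a Gzmc UMI was not lower, at 39 of 107 in control and 3 of 4 in clobetasol tumors. Gzmb in CD8 3 was 15.6 (14.7 to 16.6) in control and 2.82 (1.67 to 4.46) in 7 clobetasol cells. Tregs kept a Gzmb signal, with 7.95 (7.64 to 8.26) in control and 6.75 (5.40 to 8.35) in 14 clobetasol cells, but 1 cell held 52 of the 85 UMIs. Gzmk in CD4 went from 0.0809 to 1.06, on 11 UMIs in 10 cells.

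Over the 16 clusters of the control tumors, the genes whose mean profile was most like each member were found among 9882 genes by Pearson's r, given as a description, since the points share libraries and clusters were made from these transcripts. The 2 serpins were each other's nearest gene, with r = 0.976, followed by Fdx1 for both, with 0.916 and 0.921. Nkg7 and Fasl were also each other's nearest, with r = 0.988. The nearest gene was Klrc3, an NK receptor gene, for Gzma (0.968), and Klrc2, another, for Prf1 (0.960). Gzmc lay nearest to Adamts14 (0.943), with the neighboring granzyme gene Gzmd (0.921) among its 3 nearest. Gzmf was nearest to the cytokine gene Csf2 (0.941) and Gzmb to Gm19585 (0.950), and the serpins correlated with Gzmb at only 0.511 and 0.527.

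A wider list of 49 genes of the killing pathway was read in the same CD8 T cell test. Of 38 with enough signal, 5 were higher, 3 lower and 30 did not pass, beside 2.27% and 2.74% of all genes, and their median log2 difference was -0.13. Among granule contents Ctsc, which encodes cathepsin C, the protease that removes the inhibitory dipeptide from granzymes, rose from 1.19 ± 0.277 to 4.24 ± 0.706 (log2 difference 1.77 ± 0.20, limma adjusted p = 0.000715). Rab27a, a GTPase that docks granules at the membrane, rose from 2.05 ± 0.430 to 3.89 ± 0.676 (0.90 ± 0.18, adjusted p = 0.0172). In the same exocytosis group Lyst (-0.71 ± 0.15, adjusted p = 0.0224) and Stx11 (-0.56 ± 0.14, adjusted p = 0.047) fell, and neither call held in edgeR (0.0517 and 0.121).

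Of 4 other inhibitor genes only Serpinb6a was tested, and it was higher by 0.63 ± 0.16 (limma adjusted p = 0.0467), a call lost in edgeR (0.241). Among 10 tested transcription factor genes, Tbx21, whose product T-bet drives killer cell differentiation, fell from 4.03 ± 0.148 to 1.4 ± 0.468 (-1.50 ± 0.17, adjusted p = 0.000745), while Prdm1, which encodes Blimp-1, rose from 1.10 ± 0.188 to 2.96 ± 1.88 (1.18 ± 0.31, adjusted p = 0.049) and Stat4 from 8.86 ± 1.05 to 13.7 ± 3.35 (0.61 ± 0.15, adjusted p = 0.0447). None of the 9 tested death ligand, receptor and cytokine genes passed, including Ifng, at 2.51 ± 0.642 and 1.21 ± 1.79 (-2.02 ± 0.69, adjusted p = 0.119). The other granzymes Gzmd, Gzme, Gzmg, Gzmn and Gzmm were too low to test.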

How the data were processed

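Live CD45+ cells of 5 control and 5 clobetasol tumors were profiled by 10x 3' single cell RNA sequencing with hashtags. The authors aligned reads with Cell Ranger 7.1.0 to mm10 with introns included, kept hashtag singlets that passed quality control in Seurat 5.0.3 (R 4.3.1), integrated both channels, clustered the cells and named the clusters. The deposited values are natural log of 1 plus UMIs per 10000 of the cell, and the authors' cell table gives counts of UMIs and genes and the percent of mitochondrial UMIs per cell. Whole UMIs were recovered for 100% of 10330441 values above 0 (within 0.01), and their sums matched the authors' UMI totals for all 4108 cells. The channels shared 0 barcodes. Doublets of cells from a single tumor were not removed here.

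Per tumor, the linear level was averaged over cells, and log2 of the mean plus 0.1 was tested in limma 3.58.1 (trended and robust variance, R 4.3.3) for genes with a mean of at least 0.2 and tumors with at least 10 cells, adjusted by Benjamini-Hochberg over all genes tested, after a test of the script on simulated data. This scale understates changes of low genes. The unit is the tumor, so p-values measure the spread between tumors of 2 channels. The interaction used the tumor as a block, with an estimated within-tumor correlation of 0.00982. edgeR 4.0.16 and DESeq2 1.42.0 on the recovered counts, other pseudocounts, filters, scalings and cell minimums, thinning to 2000 UMIs and leaving out each tumor were alternatives. Intervals are exact 95% Poisson intervals. All members tested were named in the CD8 T cell, CD8 1 and CD8 2 comparisons and the interaction, and killing pathway genes where they passed. Promoter sequences are RefSeq's (GRCm38.p6), where all 10 members matched, and gene positions GENCODE vM21's. The members and gene lists were chosen with earlier results of these data known.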

Additional observations from a re-analysis of the deposited data

Results flagged for a closer look

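In each cluster of control tumors the highest or lowest tumor was compared with the other 4 by Dixon's ratio (the gap to the nearest value over the whole range, 95% critical value). Of 77 sets of 5 tumors 10 passed, where chance alone gives about 1 in 20, and in all 10 a single tumor was high. Serpinb9 in NK cells was 8.48 per 10000 in control tumor 3 and 4.71 to 5.06 in the other tumors. In CD4 cells, Gzma was 1.68 and Serpinb6b 2.39 in control tumor 5, whose cells numbered 20, and Gzmc was 1.02 in control tumor 3, against at most 0.466, 0.729 and 0.216 in the others. Gzmc in CD8 3 was 2.07 in control tumor 5, from 6 cells, against at most 0.217. Gzmf was 0.361 in CD8 3 of control tumor 3, 0.0425 in NK cells of control tumor 1 and 1.72 in γδT cells of control tumor 1, and was 0 in the other 4 tumors in each case, the NK and γδT values resting on 1 UMI each. Gzmk in NK cells was 0.104 in control tumor 4 (2 UMIs) and 0 elsewhere. In these 4 sets, where the other tumors are all 0, the ratio is 1 whatever the value, so the rate of 1 in 20 does not apply to them. Prf1 in γδT cells was 0.511 in control tumor 2 and at most 0.107 in the others. The causes were not tested.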

How the results depend on the processing

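Of 523 values of single genes under alternative settings, 459 kept direction and side of the threshold, 18 gained and 13 lost the call, and 33 changed sign. The 3 members called in CD8 T cells ranged from 2 to 4 on leaving out tumors. The 2 called in CD8 1 became 4 when log values as deposited were averaged and ranged from 2 to 4 on leaving out tumors. The 1 called in CD8 2 became 2 with a pseudocount of 1, edgeR, DESeq2 or log values and 0 with a pseudocount of 0.02, and ranged from 0 to 2 on leaving out tumors. Sign changes, none past the threshold unless stated, were as follows, as log2 differences. For CD8 T cells, Gzmf gave 0.01 with a pseudocount of 1, 0.48 in edgeR, 0.30 in DESeq2, 0.50 in edgeR with tumors of at least 5 cells (an alternative chosen after seeing the data), 0.67 with at least 20 cells (on leaving out tumors, -1.49 to 0.67), and 0.62 with both clusters at equal weight. Nkg7 gave 0.12, 0.13, 0.17 and 0.09 in edgeR, DESeq2, with at least 20 cells and at equal weight (-0.30 to 0.17 on leaving out tumors), Fasl -0.07 with at least 5 cells and Gzmk -0.11 to 0.86 on leaving out tumors. In CD8 1, Gzmf gave -0.17 with a pseudocount of 0.02 and, on leaving out tumors, -2.02 to 3.21 (both past the threshold, without clobetasol tumors 3 and 5). With at least 5 cells Gzma gave -0.66 (-0.03 in edgeR) and Prf1 -0.69, and Gzmb gave 0.28 with log values, 0.00 with median-of-ratios scaling, and -0.24 to 0.06 on leaving out tumors. In CD8 2, Nkg7 gave 0.07 in edgeR and in DESeq2 and -0.36 to 0.15 on leaving out tumors, Fasl -0.03, -0.04 and -0.09 in edgeR, DESeq2 and with log values, and Gzmf -1.18 to 0.47 on leaving out tumors. In the difference between clusters, Gzmk gave 0.23 and Prf1 0.18 with at least 5 cells. The highest cluster stayed the same for 9 of 10 members with at least 10 cells or thinned cells, Fasl moving from CD8 1 to CD8 3. The causes of these changes were not tested. Replicate numbers name hashtags within separate channels, and no paired analysis was possible because no tumor of a group is tied to a tumor of the other. The small number of clobetasol cells (7 to 41 CD8 T cells per tumor) limits all comparisons.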
